A study of Mus musculus with 18 samples.

Results

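Gene-desert peaks were the consensus ATAC-seq intervals on mouse chromosomes 1 to 19 whose midpoint lay more than 200 kb outside the body of every protein-coding gene in the RefSeq annotation of GRCm38. There were 17979 of them among 208005 autosomal intervals, a share of 8.64% (95% Wilson interval 8.52 to 8.77%, counting error only), and among 211682 intervals in all. ATAC-seq uses the transposase Tn5 to cut and tag open chromatin, and a peak is a stretch where such cuts pile up. The study asked how chromatin accessibility in cortical neurons depends on the stress-response transcription factor ATF4, with and without mitochondrial stress. Stress was produced by lowering Opa1, the GTPase that fuses inner mitochondrial membranes.

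The 18 samples were primary cortical neurons from CD1 mouse embryos of stage E14.5-15. All were cultured with cytosine arabinoside at 2 µM, which kills dividing cells, were transduced with lentiviral shRNAs on day 6 and harvested on day 11. The 4 groups were control shRNA with scrambled shRNA (n = 5), control shRNA with Atf4 shRNA (n = 3), Opa1 shRNA with scrambled shRNA (n = 5) and Opa1 shRNA with Atf4 shRNA (n = 5). The labels do not say whether replicates came from separate litters or cultures. Only 1 consensus list of intervals was analysed here, with no value per sample or group. No knockdown could be compared with its control, the depth behind a peak is unknown, and every value below describes the pooled set.

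The labelled cell type was checked at gene starts in the same list, since accessibility there is a weak guide to the cells present. A peak overlapped a start window for 65.6% of all autosomal protein-coding genes in the table, and for 65 of 72 forebrain and neuronal transcription factor genes and for 37 of 38 neurotransmitter receptor and ion channel genes. It also did so for 24 of 26 genes of ATF4 and the integrated stress response, so a high share was not confined to neuronal lists. The counts were 4 of 8 for astrocyte markers and 2 of 7 for oligodendrocyte lineage markers. They were 1 of 7 for microglia markers and 0 of 12 for hepatocyte genes. The 4 astrocyte markers without a peak were Aldh1l1, Gfap, Gja1 and Slc1a2. All these counts cover only genes for which a start window was held in the table used here.

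Gene deserts are long stretches of chromosome without protein-coding genes. Many lie next to genes that control development, and some of the best studied vertebrate enhancers sit in them, reaching their target promoters over long distances through folding of the chromatin. Other deserts hold few conserved elements, are rich in A and T and lie in compact, late-replicating chromatin.

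Most desert peaks lay in no annotated gene. Sequence could be read for the starts of long non-coding RNA (lncRNA) genes and the hairpins of microRNAs in the deserts. The start windows below run from 250 bases before to 50 bases after the RefSeq start, are read 5′ to 3′ on the strand of the gene and come from the RefSeq table of GRCm38.p6. Capitals mark CpG, the dinucleotide that is dense in most constitutively open promoters. The first 3 were desert lncRNA starts under wide peaks, with 1 start shown for each peak. The last 2 were starts without a peak that lay far from any coding gene. These windows are examples and not a ranking over all desert starts.
E130006D01Rik: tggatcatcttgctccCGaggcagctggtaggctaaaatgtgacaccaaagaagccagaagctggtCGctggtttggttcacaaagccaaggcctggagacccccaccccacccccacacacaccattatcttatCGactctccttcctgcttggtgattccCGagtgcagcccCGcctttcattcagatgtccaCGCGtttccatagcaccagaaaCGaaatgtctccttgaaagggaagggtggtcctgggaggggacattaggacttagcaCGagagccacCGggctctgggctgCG
Gm36794: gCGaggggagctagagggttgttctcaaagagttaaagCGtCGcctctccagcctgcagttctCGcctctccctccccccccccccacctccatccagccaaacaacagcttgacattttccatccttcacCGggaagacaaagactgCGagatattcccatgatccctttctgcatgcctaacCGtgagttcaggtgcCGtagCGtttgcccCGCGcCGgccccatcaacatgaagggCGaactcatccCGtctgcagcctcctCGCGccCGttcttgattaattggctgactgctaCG
Gm39160: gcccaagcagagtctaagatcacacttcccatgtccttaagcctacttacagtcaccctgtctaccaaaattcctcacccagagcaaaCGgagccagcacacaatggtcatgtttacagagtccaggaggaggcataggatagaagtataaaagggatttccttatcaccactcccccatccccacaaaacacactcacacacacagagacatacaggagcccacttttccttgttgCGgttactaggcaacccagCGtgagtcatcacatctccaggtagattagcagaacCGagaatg
Gm41226: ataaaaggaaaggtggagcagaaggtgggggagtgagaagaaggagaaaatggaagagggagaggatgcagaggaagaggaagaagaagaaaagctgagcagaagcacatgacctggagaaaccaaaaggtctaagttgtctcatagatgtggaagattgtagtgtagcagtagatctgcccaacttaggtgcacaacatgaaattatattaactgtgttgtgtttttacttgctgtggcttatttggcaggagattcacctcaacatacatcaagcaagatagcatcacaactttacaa
4933402J10Rik: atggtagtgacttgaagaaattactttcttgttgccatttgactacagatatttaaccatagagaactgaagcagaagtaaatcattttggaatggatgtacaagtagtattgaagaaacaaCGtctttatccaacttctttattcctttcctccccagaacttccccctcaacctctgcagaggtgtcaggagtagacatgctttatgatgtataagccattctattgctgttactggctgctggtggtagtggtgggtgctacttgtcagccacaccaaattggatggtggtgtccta
The window of E130006D01Rik (chr5:111761679-111761978, minus strand) held 11 CpG and lay wholly under a peak of 1677 bp. That of Gm36794 (chr5:111944408-111944707, minus strand), in the same desert between Mn1 and Cryba4, held 18 CpG under a peak of 1526 bp. The window of Gm39160 (chr8:34472950-34473249, minus strand), in the desert between Saraf and Dusp4, held 4 CpG and also lay wholly under its peak, of 1400 bp. The windows without a peak held 0 CpG for Gm41226 (chr14:90648099-90648398, plus strand) and 1 for 4933402J10Rik (chr5:59985953-59986252, minus strand), at 2177 and 1823 kb from the nearest coding gene.

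The microRNAs shown next belonged to the hairpin clusters that lay in deserts with peaks over or near them. A mature microRNA guides silencing complexes to target RNAs mainly by its seed, bases 2 to 8, which stand in capitals.
miR-344b-5p: aGUCAGGCuccuggcuaaaguuc
miR-344c-5p: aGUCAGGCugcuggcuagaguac
miR-344d-1-5p: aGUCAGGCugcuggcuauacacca
miR-344-3p: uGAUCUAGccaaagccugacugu
miR-344d-3p: gAUAUAACcacugccagacuga
miR-344e-3p: gAUAUAACcaaagccugacuau
miR-100-5p: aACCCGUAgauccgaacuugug
miR-99a-5p: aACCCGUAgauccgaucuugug
miR-125b-5p: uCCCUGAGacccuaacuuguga
The seed GUCAGGC of the first 3 was shared by 6 mature forms from 7 hairpins of the Mir344 array on chromosome 7. The seed AUAUAAC was shared by miR-344d-3p and miR-344e-3p, from 4 hairpins. The seed ACCCGUA was shared by miR-100-5p and miR-99a-5p, which came from deserts on chromosomes 9 and 16.

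Peaks thinned out with distance from coding genes. The sequence that met the desert rule between the first and last coding gene of each chromosome formed 722 deserts of 457 Mb in all, 19.05% of that span, and held 17916 of the peaks. The other 63 peaks lay beyond the first coding gene of a chromosome. The deserts held 39.2 peaks per Mb (95% Poisson interval 38.6 to 39.8, counting error only), 0.453 times the 86.7 per Mb of the whole span. Density was 116 peaks per Mb inside coding genes and 176 within 1 kb outside them, and then fell from 80.4 at 1 to 10 kb to 65.0 at 100 to 200 kb. Within the deserts it went on falling, to 50.5 peaks per Mb at 200 to 500 kb, 28.8 at 500 to 1000 kb and 17.0 beyond 1000 kb. There were 850 desert peaks at 200 to 210 kb, with a median width of 426.5 bp, and 910 other peaks at 190 to 200 kb, with a median of 403 bp. The median was thus higher on the desert side of the threshold in these narrow bins. In wider bins the order was reversed, with 413 bp at 100 to 200 kb and 408 bp at 200 to 500 kb. Neither difference was tested.

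**Figure D1:**
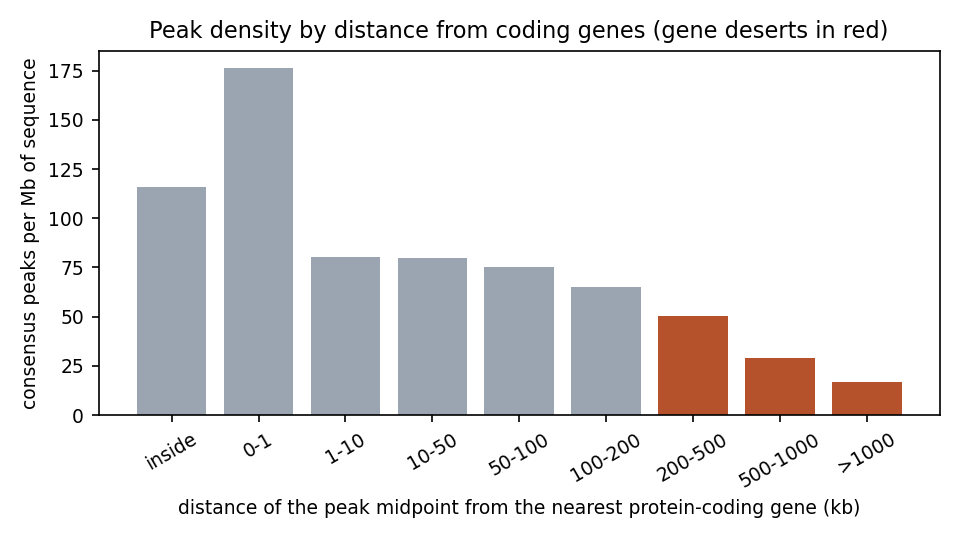
Consensus peaks per Mb of sequence (bars) by distance of the peak midpoint from the nearest protein-coding gene in kb, chromosomes 1 to 19, with the gene-desert bins in red. Density fell from 50.5 to 28.8 and 17.0 peaks per Mb over the 3 desert bins.

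The median desert peak lay 347 kb from the nearest coding gene (quartiles 262 and 529 kb). There were 5027 peaks more than 500 kb away, 1114 more than 1 Mb away and 27 more than 2 Mb away. The most remote, at chr14:90720448-90721019, was 572 bp wide and lay 2.25 Mb from Pcdh20 in the desert between the protocadherin genes Pcdh20 and Pcdh9. Its nearest neighbouring peak was 70717 bp off. The next 4 were in the same desert or in that between Celf4, an RNA-binding splicing regulator of neurons, and Pik3c3, the lipid kinase of autophagy. They lay 2.21 to 2.24 Mb from a coding gene. Among chromosomes, the share of autosomal peaks that lay in deserts ran from 5.22% on chromosome 19 to 13.9% on chromosome 18. The density of desert peaks ran from 29.9 per Mb on chromosome 6 to 53.1 per Mb on chromosome 9.

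Few desert peaks were wide. Their median width was 402 bp (quartiles 304 and 545 bp, range 76 to 2285 bp), against 426 bp over all autosomal peaks. At least 500 bp was reached by 5645 of 17979 (31.4%), where the share over all autosomal peaks was 38.4%. At least 1000 bp was reached by 426 (2.37%), where the share over all autosomal peaks was 8.16%. Wide peaks were most frequent at gene ends. Peaks within 1 kb of the end of a coding gene had a median of 808 bp and reached 1000 bp in 39.7% of cases. Peaks outside coding genes at 1 to 200 kb had a median of 416 bp, and 4.42% of them reached 1000 bp. Peaks inside genes away from the ends had a median of 417 bp, and 5.65% reached 1000 bp. Width also fell inside the deserts with distance, from a median of 408 bp at 200 to 500 kb to 390 bp at 500 to 1000 kb and 383 bp beyond. The deposited score was below its ceiling of 1000 for 325 desert peaks (1.81%), close to the 1.53% of all autosomal peaks. The score therefore separated few peaks and was used for no ranking.

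**Figure D2:**
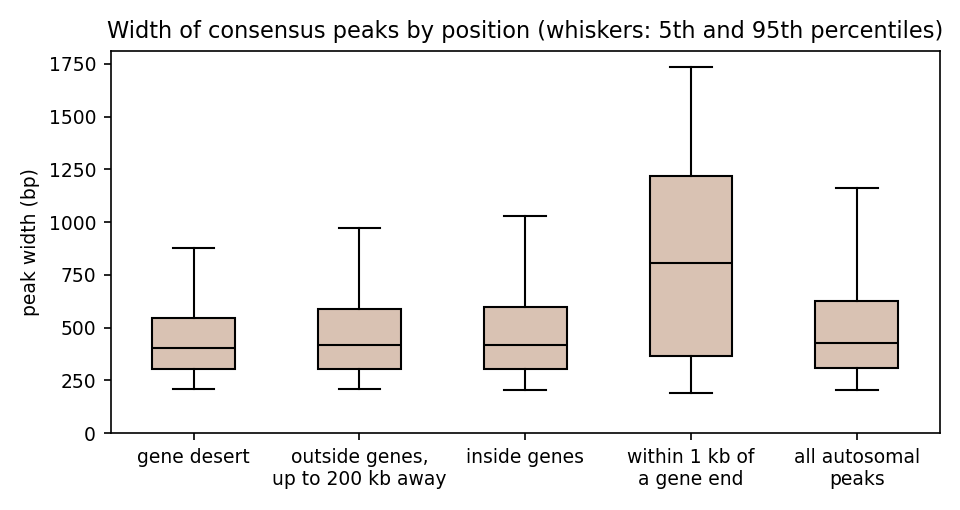
Width of consensus peaks in bp by position, as boxes from the lower to the upper quartile with the median as a line and whiskers at the 5th and 95th percentiles. The gene-desert box, with a median of 402 bp, lies close to those of peaks outside or inside genes, and the peaks within 1 kb of a gene end stand above, at 808 bp.

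The widest desert peak spanned 2285 bp at chr4:47724683-47726967, between Sec61b, a subunit of the protein translocon, and Nr4a3, an activity-induced nuclear receptor. It was 243 kb from Sec61b. The next spanned 2160 bp at chr8:89871749-89873908, 374 kb from Tox3, a chromatin-associated transcription factor, in the desert that Sall1 bounds on the other side. A peak of 2015 bp at chr12:29279463-29281477 lay 247 kb from Myt1l, a transcription factor that represses non-neuronal genes in neurons. Peaks of 2003 bp and 1886 bp followed, 201 kb from Saraf, an inhibitor of store-operated calcium entry, and 625 kb from Arpp21, a cAMP-regulated phosphoprotein of neurons. The other 5 were 1762 to 1876 bp wide. They lay nearest to Gm7361 in the desert next to Dpp6, an auxiliary subunit of potassium channels, to Kcns3, a modulatory potassium channel subunit, to Nrsn1, a neuronal vesicle protein, to Tenm3, a teneurin adhesion protein, and to Nr2f2, a nuclear receptor of interneuron development. The one nearest to Tenm3 was the most isolated of the 10, at 1.39 Mb from the gene and 33554 bp from its nearest peak. The 8 other wide peaks besides those of Nrsn1 and Tenm3 overlapped no annotated non-coding gene. Those near Nrsn1 and Tenm3 overlapped the lncRNA genes Gm11351 and 1700019L22Rik.

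The peaks were spread unevenly along the deserts. The distance to the nearest other peak had a median of 5.13 kb, against 2.62 kb for peaks outside coding genes up to 200 kb away and 2.10 kb for peaks inside them. Another peak lay within 10 kb of 12046 desert peaks (67.0%), where the share over all autosomal peaks was 86.6%. Windows of 50 kb wholly inside deserts numbered 8781. They held 1.92 peaks on average with a variance 2.43 times the mean, where counts that fell independently at one rate would give a ratio of 1. No peak fell in 2524 windows (28.7%), and the fullest 10% of windows held 35.8% of the peaks. Differences between whole deserts made up much of this spread. Within the 447 deserts that held at least 5 windows, the variance around the desert's own mean was 1.27 times the mean count, and it made up 54.3% of the variance over all their windows.

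**Figure D3:**
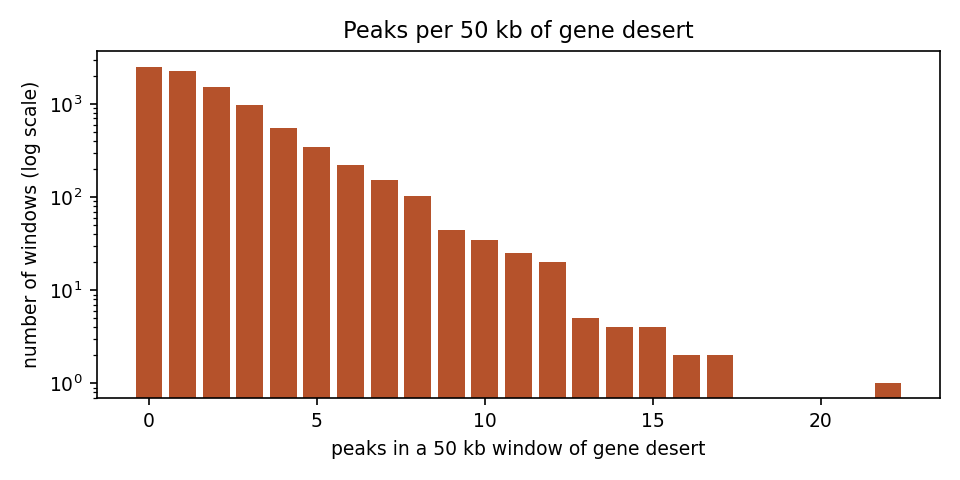
Number of 50 kb windows of gene desert (log scale) by the number of peaks they held. Of 8781 windows 2524 were empty, and the fullest, in the desert between Gm6569 and Adgrb1, held 22.

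When peaks with midpoints at most 10 kb apart were joined, the desert peaks formed 9789 groups, of which 6015 were single peaks. Groups of at least 5 numbered 551 and held 4002 peaks (22.3%), and 78 groups had at least 10. The peaks of the larger groups lay closer to coding genes. The median distance was 419 kb for single peaks, 294 kb for peaks in groups of 5 to 9 and 293 kb for those in groups of at least 10. Width differed less, with medians of 404, 418 and 407 bp in the same order.

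Of the 5 largest groups, 4 lay between coding genes. Between Gm6569, a predicted gene, and Adgrb1, an adhesion receptor of synapses, 36 peaks filled 93.0 kb at chr15:74134259-74227264. A further 36 filled 104 kb at chr4:124175206-124279151, between Rragc, a Rag GTPase of the mTORC1 pathway, and Pou3f1, a POU-domain transcription factor. There were 30 within 90.7 kb at chr5:111672035-111762713, between Mn1, a transcriptional coregulator, and Cryba4, a lens crystallin. There were 26 within 92.5 kb at chr6:99931618-100024086, between Prok2, a secreted prokineticin, and Rybp, a Polycomb subunit. In these 4 groups peaks covered 15.2 to 20.6% of the sequence and the median widths were 374.5 to 449 bp.

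The largest group of all was of another kind. It held 45 peaks within 38.3 kb at chr9:2999969-3038273, at the start of the chromosome's assembled sequence and before its first coding gene. Their median width was 190 bp, and 37 of the 45 were under 300 bp. Peaks before the first coding gene numbered 3 on chromosome 3, 2 on chromosome 6, 2 on chromosome 13 and 11 on chromosome 16. They enter no density per Mb given here.

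Nearly every desert of some length was marked by open chromatin. A peak was present in 672 of the 722 deserts (93.1%), and 43 of the 50 deserts without one were under 100 kb long. The median desert was 351 kb long and held 18 peaks, and the longest was 4.14 Mb. Among the 488 deserts of at least 200 kb, the density ran from 0 to 264 peaks per Mb, with quartiles of 22.7, 39.7 and 64.7. Shorter deserts were denser, with 64.8 peaks per Mb over those of 0.1 to 0.5 Mb, 49.4 over 0.5 to 1 Mb, 32.2 over 1 to 2 Mb and 21.9 over those longer than 2 Mb. Against the number expected at the same distances from genes, the ratios in the same order were 1.19, 1.08, 0.873 and 0.807, so the order by length was the same at matched distances. The 72 deserts with most peaks held 31.0% of the peaks on 26.7% of the desert sequence.

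The desert with most peaks, between Celf4 and Pik3c3 on chromosome 18, held 153 peaks on 4.11 Mb. That between Slc10a2, an intestinal bile acid transporter, and Efnb2, the guidance ligand ephrin-B2, held 141 on 3.11 Mb, of which 87 lay on the Efnb2 side of its centre and 54 on the Slc10a2 side. Between Arpp21 and Pdcd6ip, an ESCRT-associated protein, there were 124 on 1.02 Mb, which is 122 per Mb. Between Klhl29 and Apob, the apolipoprotein of hepatic and intestinal lipoproteins, there were 118, and between Rps24, a ribosomal protein, and Zmiz1, a transcriptional coactivator, there were 112 on only 0.561 Mb. The desert between Bcl11a, a zinc finger factor of cortical projection neurons, and Fancl, a ubiquitin ligase of DNA repair, held 109. The last 4 were those of Auts2, a neurodevelopmental gene, and Castor2, an mTORC1 regulator, with 107, Gm15501 and Tenm4, a teneurin, with 104, Zeb2, a zinc finger factor of neural crest and interneurons, and Acvr2a, an activin receptor, with 101, and Camk1g, a calmodulin-dependent kinase, and Plxna2, a semaphorin receptor, with 99. The number of peaks expected came from the density of all deserts at the same distances from coding genes, in 50 kb steps. These 10 deserts held 1.21 times (Zeb2 to Acvr2a) to 4.10 times (Rps24 to Zmiz1) the peaks expected. Since they were chosen for their number of peaks and entered that density, ratios above 1 follow in part from the choice.

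How far those peaks fell inside lncRNA genes differed from desert to desert. In the desert of Bcl11a 63 of 109 did so, and the single gene 5730522E02Rik held 52. In that of Rps24 and Zmiz1 61 of 112 did, and in that of Tenm4 44 of 104, and Gm32647 alone held as many. In that of Auts2 only 3 of 107 did. Over all desert peaks the share in an lncRNA gene was 15.9%. The gene Gm32647 is 1284 kb long in a desert of 2.59 Mb, and 5730522E02Rik is 594 kb long at a desert of 1.81 Mb. How much of each desert lncRNA genes cover was not computed, so these counts are not corrected for length.

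The 10 densest deserts of at least 200 kb were all short, at 0.201 to 0.561 Mb. The desert between Gm6569 and Adgrb1 led with 73 peaks on 0.276 Mb, 264 per Mb. That between Mn1 and Cryba4 had 231 per Mb, and 11 of its 90 peaks reached 1000 bp. That between Matn1, a cartilage matrix protein, and Ptpru, a receptor tyrosine phosphatase, had 216 per Mb, and Rps24 to Zmiz1 had 200 per Mb. The other 6 ran from 186 to 199 per Mb. They were bounded by Gadd45g, a stress-induced growth regulator, and Diras2, a brain GTPase, by Eef2kmt, a methyltransferase of an elongation factor, and Rbfox1, a neuronal splicing factor, by Eipr1, a trafficking factor, and Myt1l, by Ubash3b, a tyrosine phosphatase, and Gm40514, by Sdk2, a synaptic adhesion protein, and Rpl38, a ribosomal protein, and by Saraf and Dusp4, a MAP kinase phosphatase. The desert of Myt1l had the widest peaks of the 10, with a median of 527.5 bp, and 28 of its 50 peaks reached 500 bp. In the desert of Rbfox1 the median was 353 bp, and 10 of its 45 peaks reached 500 bp.

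The longest deserts were poor in peaks, with 1 exception. Pcdh20 to Pcdh9, at 4.14 Mb, held 49 peaks (11.8 per Mb), a ratio of 0.498 to the number expected at its distances. Olfm4, a secreted olfactomedin, to Pcdh17 held 65 on 4.02 Mb, Cntnap5b, a contactin-associated protein, to Cdh20, a cadherin, 67 on 3.88 Mb, and Tenm3 to Aga, a lysosomal amidase, 56 on 3.59 Mb. Their ratios were 0.676, 0.716 and 0.625. The exception was Celf4 to Pik3c3, the second longest, with 37.2 per Mb and a ratio of 1.56. In the desert of Olfm4 and Pcdh17 48 of 65 peaks lay on the Olfm4 side of the centre, and in that of Tenm3 and Aga 44 of 56 lay on the Tenm3 side.

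The longest stretch without any peak was a whole desert, the 2101 kb between Adam6a and Zfp386 on chromosome 12, where the immunoglobulin heavy chain locus has 152 annotated gene segments. At its distances 64.6 peaks would be expected. Another antigen receptor locus was not empty. The desert between Gm36448 and Dad1, with the T cell receptor alpha segments on chromosome 14, held 63 (48.7 per Mb), of which 47 lay on the Dad1 side of the centre. These segments are not annotated as protein-coding, which is why their loci count as deserts here. The other 4 longest deserts without a peak were much shorter, at most 323 kb. They lay between Obox7 and Obox2, oocyte-specific homeobox genes, between Gm12887 and Gm10573, between Gm38656 and Scgb2a2, a secretoglobin, and between Cst3 and Cst10, cystatin genes.

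In all, 1273 of the 20558 autosomal coding genes (6.19%) bounded one. Of the lists of gene groups, the shares were 76.0% for cadherins and protocadherins (19 of 25), 64.0% for synapse organizers and other neuronal adhesion genes (32 of 50), 57.1% for axon guidance genes (20 of 35), 52.6% for forebrain and neuronal transcription factors (51 of 97) and 47.4% for neurotransmitter receptor and ion channel genes (27 of 57). It was 20% for astrocyte markers (2 of 10), 13.3% for hepatocyte genes (2 of 15), 10% for oligodendrocyte lineage markers (1 of 10), 8.33% for microglia markers (1 of 12) and 6.90% for integrated stress response genes (2 of 29). It was 0.206% for olfactory and vomeronasal receptor genes (3 of 1454), which lie in tight clusters. The lists were drawn up with earlier results of these data known, and no test was made of these shares.

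Among the 5 neuronal lists, the deserts of transcription factor genes were the densest and those of cadherin genes the least dense. The 57 deserts next to a listed transcription factor held 52.7 peaks per Mb (95% Poisson interval 50.3 to 55.1, counting error only), above the 39.2 per Mb of all deserts. The 26 deserts next to a cadherin or protocadherin held 19.7 per Mb (18.5 to 21.0). Since peaks are clustered, these intervals are too narrow. The cadherin deserts were also longer, with a median of 1.65 Mb against 0.454 Mb for those of the transcription factors. Against the number expected at the same distances, the ratio was 1.27 for the transcription factor deserts, with 39 of 57 above 1, and 0.675 for the cadherin deserts, with 2 of 26 above 1. Over all deserts 325 of 722 were above 1. In deserts up to 1 Mb long the densities were 70.9 and 31.4 per Mb, and in longer ones 34.5 and 18.7, against 57.0 and 26.6 over all deserts of those lengths.

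**Figure D4:**
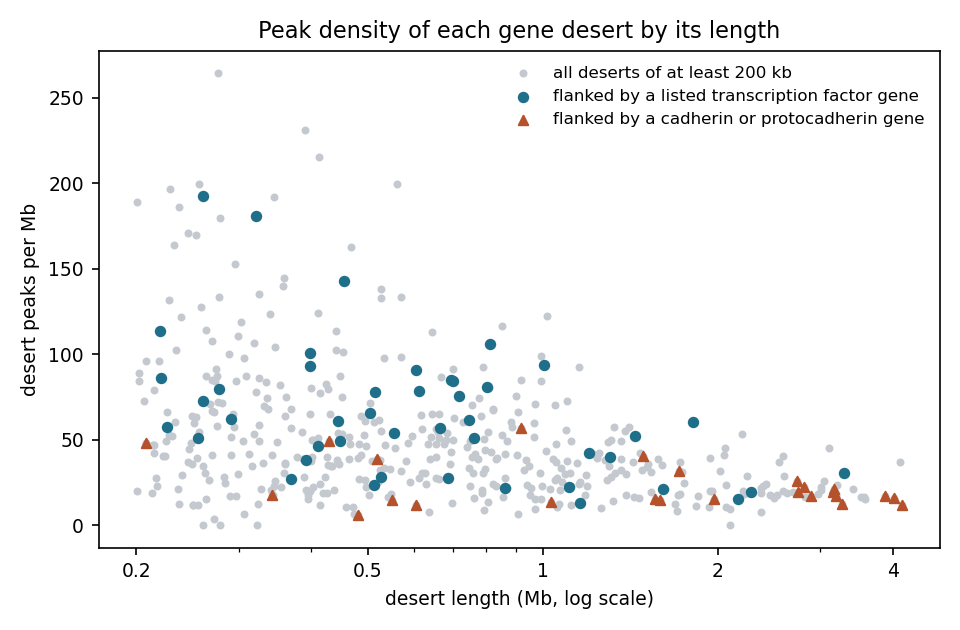
Peaks per Mb of each of the 488 deserts of at least 200 kb against desert length in Mb (log scale), with deserts next to a listed transcription factor gene as blue circles and those next to a cadherin or protocadherin gene as red triangles. Short deserts reach up to 264 peaks per Mb, and the cadherin deserts lie low and mostly to the right, at a median of 17.3 per Mb against 60.1 for the transcription factors.

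Among the transcription factors, Bcl11a and Zeb2 bounded the fullest deserts (109 and 101 peaks). Sall3, a spalt zinc finger gene, bounded a desert of 94 peaks shared with Galr1, and Id2, an inhibitor of basic helix-loop-helix factors, one of 86 (106 per Mb). Pou3f3, a POU factor of upper-layer cortical neurons, bounded one of 75, and Sall1 one of 65. Sox11, a factor of newborn neurons, had deserts on both sides, with 65 peaks at 143 per Mb towards Cmpk2 and 59 at 84.9 per Mb towards Dcdc2c. Of the cadherins, Cdh8 bounded the fullest desert (71 peaks, 25.9 per Mb), followed by Pcdh10 (68), Cdh20 (67), Pcdh17 (65), Cdh11 with Cdh8 on its other side (63) and Cdh6 with Cdh9 (62), all at 16.2 to 25.9 per Mb. In the desert of Pcdh10, 12 of 68 peaks lay on the Pcdh10 side of the centre.

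Over deserts of all lengths, the other 3 neuronal lists had densities between these, although in deserts longer than 1 Mb those of receptor and channel genes held 18.2 per Mb, below the 18.7 of the cadherins. Deserts next to axon guidance genes held 41.0 peaks per Mb (38.5 to 43.6), an interval that takes in the 39.2 of all deserts, with a ratio of 1.16 at the same distances. They included Efnb2 (141 peaks), Plxna2 (99), the ephrin receptor genes Epha4 (81) and Epha7 (75), the guidance cue Slit2 (64) and the netrin receptor Unc5d (62). Deserts next to synapse organizers held 25.01 per Mb, with a ratio of 0.783. Tenm4 (104), the latrophilins Adgrl2 (84) and Adgrl3 (75), Tenm2 (79), Cntnap5a (72) and Cntnap5b (67) had the most. Deserts next to receptor and channel genes held 31.0 per Mb, with a ratio of 0.779. That of Gria1, an AMPA receptor subunit, stood out with 76 peaks at 133 per Mb, where that of the kainate receptor gene Grik2 held 54 at 18.1 per Mb. Those of the potassium channel gene Kcnt2, the metabotropic receptor gene Grm7, the serotonin receptor gene Htr2a and the muscarinic receptor gene Chrm3 held 52, 44, 42 and 40. The side of the desert next to the listed gene held 38.1% of the peaks for cadherins and 44.2 to 46.4% for the other 4 neuronal lists, counting deserts with a listed gene at 1 end only.

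Genes of the ATF4 pathway bounded a desert about as often as all autosomal coding genes (6.90 against 6.19%). Of 29 autosomal genes of the integrated stress response list, Psat1, an enzyme of serine synthesis, and Slc7a11, the cystine transporter, did so, at 3 deserts with 98 peaks in all (68.1 per Mb, a ratio of 1.42 to the number expected at the same distances). The desert between Tle4 and Psat1 held 60, of which 36 lay on the Psat1 side. Those on the sides of Slc7a11 held 28 towards Noct and 10 towards Pcdh18. Whether any of these peaks depended on ATF4 cannot be told from the consensus list. The glial and liver lists touched few deserts, and their ratios ran from 0.683 to 1.80. Sox9 and Gja1 (astrocyte) bounded 3 with 71 peaks in all, 50.5 per Mb and a ratio of 1.07. Sall1, in the microglia list and also in that of the transcription factors, bounded 1 of 65 peaks, 81.0 per Mb and a ratio of 1.80. Apob and Cps1 (hepatocyte) bounded deserts of 118 and 16 peaks, together 51.5 per Mb and a ratio of 1.54. Ugt8a (oligodendrocyte) bounded 1 short desert of 1 peak, 39.7 per Mb and a ratio of 0.683. The pooled density of the 2 hepatocyte deserts was thus close to that of the neuronal transcription factor deserts, and their pooled ratio was higher. Only 1 of the 2 had a ratio above 1, and the desert of Apob held 118 of the 134 peaks. The desert of Cps1, up to 1 Mb long, held 39.9 per Mb, against 70.9 for transcription factor deserts of that length. The longer desert of Apob held 53.6 per Mb, against 34.5 for transcription factor deserts longer than 1 Mb.

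Of the desert peaks, 14923 (83.0%) had their midpoint in no annotated gene of any kind and 2864 (15.9%) in an lncRNA gene. Of the 1181 lncRNA genes that lay in deserts, 767 (64.9%) overlapped a desert peak, against 50 of the 1181 desert pseudogenes (4.23%). The lengths of the genes were not taken into account. The lncRNA genes with most desert peaks were 5730522E02Rik with 52 on 594 kb, Mir100hg, the host gene of miR-100, with 50 on 239 kb, Gm32647 with 44, A930011G23Rik with 43 and 6530403H02Rik with 38.

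Starts of desert lncRNA genes carried a peak less often than starts elsewhere. A peak overlapped 197 of 1023 start windows in deserts (19.3%), against 30.8% of the lncRNA starts not in deserts and 51.8% of all starts on these chromosomes. The windows in deserts with a peak had a median GC content of 46.7% and a median of 4 CpG, and those without one had 43.3% and 2. At least 10 CpG were held by 17 of 197 with a peak (8.63%) and 34 of 826 without (4.12%). The share was 44.0% over all start windows. Among lncRNA starts not in deserts it was 16.4% outside coding genes and 28.9% inside them. The windows of E130006D01Rik and Gm36794 printed above held at least 10 CpG, and that of Gm39160 did not. Peaks over lncRNA starts were wide for desert peaks. The 171 of them had a median of 556 bp against 401 bp for the other desert peaks, and 23 (13.5%) reached 1000 bp against 2.26%. A wide peak overlaps a window more easily, and only the widest peak over each window was counted. Part of the difference is therefore built into the choice, and how much was not tested.

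Short motifs were counted in the same windows on both strands, where each motif was sought on its own and overlaps between motifs were allowed. The E-box CAGCTG, bound by basic helix-loop-helix factors, was in 22.8% of the desert lncRNA windows with a peak, in 13.8% of those without and in 16.3% of all start windows. For the NeuroD-type E-box CAGATG the shares were 27.4, 21.4 and 17.2%, and for the AP-1 motif TGANTCA they were 14.2, 9.93 and 7.84%. The core TGATGNAA of the element that ATF4 binds with C/EBP factors was in 7.61% of windows with a peak, 8.96% of those without and 3.83% of all. The cAMP response element TGACGTCA was in 2 of the 197 windows with a peak and 5 of the 826 without, and in 1.83% of all windows. The letters TATAAA were in 20.8, 23.2 and 13.6%. Desert windows were poorer in GC than all windows (median 44.0 against 53.0%), which these shares do not correct for. A match describes letters in a window and is not a binding site.

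MicroRNA hairpins were rare in deserts, with 44 of the 919 in the RefSeq table, and 15 of the 44 had a peak over them, where the share over all 919 was 21.2%. Outside the Mir344 array 3 of the desert hairpins had one. The Mir344 array accounted for 12 of these 15. All 13 Mir344 hairpins of the table lay at chr7:61683124-62085310 in the desert between Gm51483 and Ndn, an imprinted gene of neurons, all on the minus strand and 263 to 613 kb from the nearest coding gene. A peak overlapped 12 of them, and for the remaining one, Mir344e, the nearest peak began 22 bp away. The widths of the 12 ran from 272 bp at Mir344h-1 to 1092 bp at Mir344g, with a median of 735.5 bp. They were 537 bp at Mir344d-1, 710 bp at Mir344d-2, 874 bp at Mir344d-3 and 402 bp at Mir344h-2. Along the rest of the array they were 960 bp at Mir344b, 742 bp at Mir344c, 1003 bp at Mir344, 917 bp at Mir344-2, 729 bp at Mir344f and 663 bp at Mir344i. Of the 13 peaks over or next to the hairpins 10 reached 500 bp. The 11 other peaks in the span of 402 kb had a median of 473 bp and a maximum of 734 bp. The whole desert held 33 peaks on 0.835 Mb, and its density of 39.5 per Mb was close to that of all deserts. Of the 33 peaks, 24 lay in the 402 kb span of the array, so most peaks of this desert were at the array. The hairpins resemble each other, and some mature forms are identical. The sequence of miR-344d-3p is carried by 3 hairpins and those of miR-344-5p and miR-344-3p by Mir344 and Mir344-2 alike. How reads that align to several copies were treated is unknown, so the calls at single copies are uncertain.

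**Figure D5:**
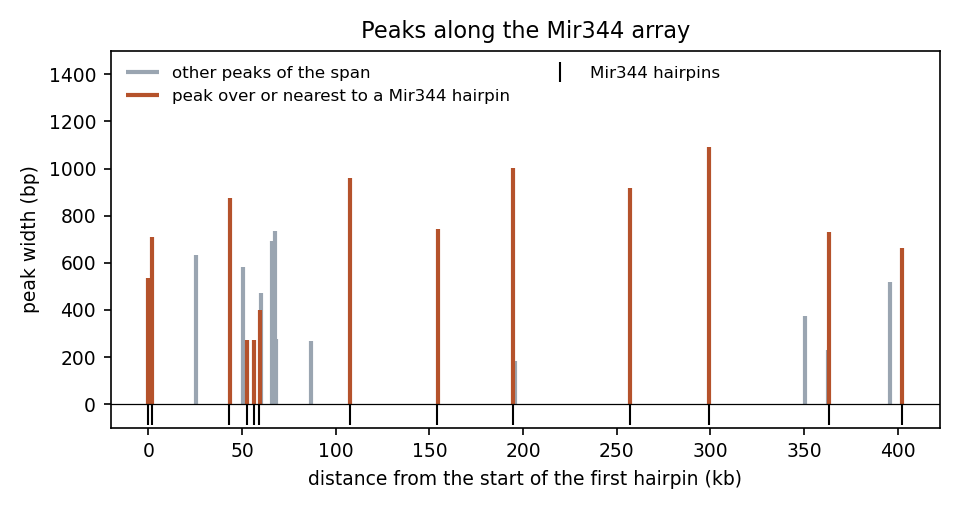
Width in bp of each peak (vertical bars) along the Mir344 array by distance in kb from the start of the first hairpin, with the 13 hairpins as ticks under the axis and the peaks over or nearest to them in red. Of the 13 red peaks 10 are 537 to 1092 bp wide, and the 11 other peaks of the span reach at most 734 bp.

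The clusters of miR-100 and of miR-99a lay differently. Mir100, Mirlet7a-2 and Mir125b-1 lie inside the lncRNA gene Mir100hg. Mir99a and Mirlet7c-1 lay 40.5 and 41.2 kb past the end of Mir99ahg as annotated here, and so outside the gene model whose peaks are counted below. Mir100hg ran through most of the dense desert between Ubash3b and Gm40514 (66 peaks, 192 per Mb). Its 50 peaks were 100 to 945 bp wide, with a median of 411 bp. No peak covered its hairpins, and the nearest lay 131 bp from Mir100, 144 bp from Mir125b-1 and 4557 bp from Mirlet7a-2. Mir99ahg on chromosome 16, in the desert between Usp25 and Cxadr (50 peaks, 63.7 per Mb), held 20 peaks with a median of 460 bp. The nearest peak lay 2726 bp from Mirlet7c-1 and 3476 bp from Mir99a. Although miR-100-5p and miR-99a-5p share the seed shown above, Mir100hg had 50 peaks on 239 kb and Mir99ahg 20 on 229 kb.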

How the data were processed

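ATAC-seq had been made on 18 samples, and the authors deposited 1 consensus BED list of 211682 intervals on mm10, each row a position with an interval name and a score. The unit of the deposited score is not stated, and 1000 is its ceiling. MACS2, deepTools and MultiQC are named in the submitters' processing notes, without versions, and the interval names begin with MSPC, which joins peak calls of replicates. Not given in the sources used here are the aligner, the shift of cut sites, the treatment of duplicate, mitochondrial and multiply aligned reads, any excluded regions, the thresholds and the samples behind the consensus. They could change the number and the width of peaks.

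Genes came from RefSeq (GRCm38.p6), without 365 of 49997 that lie on scaffolds or have no chromosome, which left 20558 autosomal protein-coding genes. A desert is sequence more than 200 kb from every coding gene, between the first and last coding gene of a chromosome, and its flanking genes are the coding genes on either side. Peaks were joined where midpoints lay at most 10 kb apart, and counted in 50 kb windows wholly inside deserts. Wilson (shares) and exact Poisson (densities) intervals at 95% cover counting error only. Start windows came from the RefSeq promoter table, 31396 windows on chromosomes 1 to 19, with 1023 lncRNA windows in deserts, and a peak counted as over a window at any overlap. The sequence under other peaks was not used here. Python 3.11.15 with pandas 2.3.3, numpy 2.4.6 and scipy 1.17.1 was used, and the methods were tested on simulated data.

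All values describe 1 list, so no test was made. The members and the gene lists were chosen with earlier results of these data known. Named genes were those flanking the 10 deserts with most peaks, the 10 of at least 200 kb with most peaks per Mb, the 5 longest and the 5 longest without a peak, those nearest to the 10 widest peaks, the 5 most distant peaks and the 5 largest groups, and of each list up to 6 by number of peaks. Other genes that share those deserts, the antigen receptor loci, long gaps and the non-coding genes were named after their values were seen. Some deserts are not reported here. Alternatives were other distances from genes, joining distances and window sizes, genes of all types as bounds, whole intervals in place of midpoints, a minimum width and the score at its ceiling.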

Additional observations from a re-analysis of the deposited data

Results flagged for a closer look

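The rule for gene-desert peaks covered chromosomes 1 to 19, and the same distance applied to chromosome X gave 257 further peaks more than 200 kb outside every coding gene, among the 3622 consensus peaks of that chromosome. They are given here because they lie outside the set described above. Over the autosomes 17979 of 208005 peaks (8.64%) lay in deserts. The desert sequence of chromosome X came to 35.2 Mb, so its density was 7.31 peaks per Mb, against 29.9 to 53.1 over the 19 autosomes. The peak density of chromosome X as a whole was not computed. Whether the low value is particular to its deserts was not tested.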

How the results depend on the processing

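No paired analysis was possible because the list has no value per sample, and for the same reason no replicate could be left out. With the limit at 100 kb there were 30855 gene-desert peaks (14.8% of autosomal peaks, 47.0 per Mb, median width 406 bp, 71.7% in groups), and with it at 500 kb 5027 (2.42%, 24.97 per Mb, 389 bp, 51.7%). With genes of all types as bounds 1425 remained in the set (0.685%, 24.8 per Mb, 395 bp, 51.7%). With peaks of at least 500 bp alone there were 5645 (7.07%, 12.3 per Mb, 639 bp, 35.5%), and with the score at its ceiling the density was 38.5 per Mb and the median width 406 bp. The share of peaks in groups, 66.5% as reported, was 49.1% when joined at 5 kb and 86.6% at 25 kb. The variance over the mean, 2.43 in 50 kb windows, was 1.66 in 20 kb and 3.65 in 100 kb windows. Of the 5 neuronal lists 2 had deserts denser than all deserts, and at 100 kb 1 did, since axon guidance deserts then held 44.9 per Mb against 47.0. The transcription factor lists stayed above and the cadherin lists below all deserts at 100 kb, at 500 kb and with peaks of at least 500 bp. With whole intervals in place of midpoints the number, share, density, median width and share in groups stayed within counting error. So did the number, share, median width and share in groups between the first and last coding genes, an alternative added in part after seeing the data. Expected numbers by distance were also added after seeing the data. Depth is unknown, so an empty desert is one without a called peak at this depth and not one without open chromatin.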

Other observations

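Among the desert microRNAs outside the clusters described above, Mir6350, Mir1952 and Mir802 had a peak over the hairpin, and the nearest peak lay 344 bp from Mir6368. At the other end, the nearest peak lay 139205 bp from Mir6342, 351411 bp from Mir6388, 981335 bp from Mir7094-1 and 1025563 bp from Mir7094-2. The last 3 lie in the immunoglobulin heavy chain desert that held no peak.

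Among the long runs of desert without a peak were 869 kb between Slc39a10, a zinc transporter, and Tmeff2, a transmembrane protein with follistatin domains, and 621 kb between Tmprss15, the intestinal enteropeptidase, and Ncam2, a neural cell adhesion gene.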
